A study of Mus musculus with 32 samples.

Results

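Macrophage genes were measured in cultures of mouse embryonic fibroblasts, in pluripotent stem cell lines and in fibroblasts undergoing chemical reprogramming. The list held 36 genes of 55401 in each deposited table, and all were found in all 5 tables. They were chosen by name with earlier results of these data known. Of the 36 genes 35 are expressed mainly by macrophages or other myeloid and blood cells. The remaining one, Csf1, encodes the growth factor that macrophages depend on and is made by fibroblasts. Libraries were made in 16 groups of 2, and the labels do not say whether a pair came from separate cultures, so the p-values measure only the spread between paired libraries, which may be technical.

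The cells were OG2X129 embryonic fibroblasts unless stated, and the labels of all 32 libraries, those of MEF, iPSC and R1 cells included, name a chemical reprogramming medium that held VPA, CHIR99021, 616452, Parnate, Forskolin, AM580, EPZ004777 and vitamin C. The first table compared CD3254, an agonist of the retinoid X receptors, with the solvent DMSO. The second compared cells overexpressing Rxra, the gene of retinoid X receptor alpha, with an overexpression control (CTR), and the third compared Exosc3 knockdown (shE3) with a control hairpin (shCTR), Exosc3 being a core subunit of the RNA exosome. The fourth sampled cultures with CD3254 or DMSO before (0 h) and 4 or 8 h after addition of actinomycin D, a blocker of transcription. The fifth held MEF, iPSC lines derived with CD3254 (CD iPSC), iPSC lines named DMSP and labelled as DMSO-treated (DMSP iPSC), and R1 embryonic stem cells from a blastocyst. The MEF libraries carried the labels of a control hairpin and of reprogramming, so whether they are untreated fibroblasts is known only from their name. The promoter that drove each transgene or hairpin, the day of harvest and the number of clones behind each iPSC group are not stated in the labels.

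Macrophages are phagocytes that settle in most tissues of the embryo and are kept alive by CSF1 acting on the receptor CSF1R. Their identity is set by the transcription factor PU.1, the product of Spi1. They recognise targets through Fc, scavenger and complement receptors, and some of their receptors signal through the adaptors TYROBP and FCER1G. They digest what they engulf with lysozyme and cathepsins and are a main source of complement C1q, built from A, B and C chains. Cultures of embryonic fibroblasts are made from dissociated embryos and can carry such cells along.

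The promoters of the 2 adjacent C1q genes that the reference table held, of Lyz2, the most abundant of these RNAs in MEF, and of Csf1, the fibroblast ligand, are shown because they stand for the macrophage product, the leading RNA of MEF and the signal from fibroblasts. The bases stand upstream of the start that RefSeq gives on GRCm38.p6 and of the gene's end in GENCODE M21, 5′ to 3′ on the minus strand, on which all 4 genes lie. Capitals mark GAGGAA, a core of the sites that PU.1 and other ETS factors bind, or its reverse complement TTCCTC.
C1qb (chr4:136886201-136886450, 250 bases): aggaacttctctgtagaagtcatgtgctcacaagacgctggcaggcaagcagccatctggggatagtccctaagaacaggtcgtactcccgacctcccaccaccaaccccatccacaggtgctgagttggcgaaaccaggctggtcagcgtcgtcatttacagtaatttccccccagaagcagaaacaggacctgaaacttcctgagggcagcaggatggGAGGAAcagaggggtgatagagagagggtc
C1qc (chr4:136893066-136893164, 99 bases): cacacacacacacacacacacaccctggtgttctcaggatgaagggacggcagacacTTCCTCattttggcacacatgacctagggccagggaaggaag
Lyz2 (chr10:117282322-117282522, 201 bases): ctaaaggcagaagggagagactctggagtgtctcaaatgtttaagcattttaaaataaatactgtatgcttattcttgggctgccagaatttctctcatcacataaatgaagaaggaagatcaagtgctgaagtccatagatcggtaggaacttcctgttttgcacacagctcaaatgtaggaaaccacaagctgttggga
Csf1 (chr3:107760470-107760719, 250 bases): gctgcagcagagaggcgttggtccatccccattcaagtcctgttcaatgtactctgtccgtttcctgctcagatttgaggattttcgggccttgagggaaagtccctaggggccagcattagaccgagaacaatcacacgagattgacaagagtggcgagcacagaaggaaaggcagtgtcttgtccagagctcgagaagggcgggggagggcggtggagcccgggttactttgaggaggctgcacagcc
The C1qb match lay 30 to 25 bases before the RefSeq start and the C1qc match 193 to 188 bases before it. The Lyz2 and Csf1 windows held none, which says only that these letters are not in these windows. RefSeq promoters were found for 26 of the 36 genes. On either strand of the 250 bases before the start, 14 of the 26 genes (53.8%) held GAGGAA, against 25.9% of all 27025 genes in the table, and 50.0% of their 30 windows against 23.3% of all 32851 windows. The longer GAGGAAGT, which contains GAGGAA, was found for 1 of the 26, C1qc, against 2.79% of all genes. These are matches of letters and not sites of binding.

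The MEF libraries carried RNA of all 36 genes, which were chosen with earlier results of these data known. In MEF all 36 had a mean of at least 1 TPM (a level scaled by transcript length and by the total of the library) and 33 a mean of at least 5 TPM. Of a further list of 72 macrophage genes, 63 had a mean of at least 1 TPM in MEF and 5 were listed at 0 in both libraries. Without Csf1 the other 35 summed to 1841 and 2112 TPM in the 2 libraries, of which Lyz2 made up 48.7%. Lyz2, which encodes the lysozyme of macrophages and lies at chromosome 10, 117277331 to 117282321 on the minus strand (GENCODE M21, GRCm38), stood at 869 and 1057 TPM. For comparison the fibroblast collagen gene Col1a1 stood at 7118 and 6515 TPM and the mesenchymal receptor gene Pdgfra at 125 and 102 TPM. These are bulk samples, in which fewer cells of a type and less RNA per cell cannot be told apart.

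The members present in MEF came from several parts of the macrophage programme. The C1q genes lie side by side on chromosome 4, C1qb from 136880129 to 136886187, C1qc from 136889804 to 136893065 and C1qa from 136895917 to 136898803. Their levels were of one size: C1qb was at 91.9 and 110.4 TPM, C1qa at 74.8 and 98.9 TPM and C1qc at 70.0 and 77.4 TPM, and the ranges of C1qa and the other chains overlapped. The adaptor genes Fcer1g and Tyrobp were at 50.1 and 69.7 TPM and 43.6 and 51.2 TPM. The scavenger receptor gene Msr1 was at 48.2 and 47.0 TPM and the mannose receptor gene Mrc1 at 16.7 and 15.3 TPM. Markers that define the lineage were present too, Csf1r at 27.2 and 23.3 TPM, the F4/80 gene Adgre1 at 17.0 and 12.2 TPM and Spi1 at 11.6 and 14.6 TPM. The CD45 gene Ptprc, a surface gene of leukocytes in general that is counted below among the defining markers, was at 5.91 and 5.38 TPM. The lowest members were Ly86, which encodes MD-1, at 1.60 and 2.05 TPM, the invariant chain gene Cd74 at 3.72 and 2.00 TPM and the integrin gene Itgam at 1.75 and 4.15 TPM.

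Most markers of other blood cells were near or at 0 in the same MEF libraries. All 8 neutrophil markers and all 7 erythroid markers were listed at 0 in both. Of 9 T and NK cell markers 7 were listed at 0, and the summed level of the list, 1162 and 1189 TPM, was nearly all Thy1, which fibroblasts express. Of 8 mast cell and basophil markers 5 were at 0 and the list summed to 3.14 and 1.89 TPM. Of 6 B cell markers 4 were at 0, with a sum of 2.34 and 2.91 TPM, and the 8 endothelial markers summed to 8.76 and 12.3 TPM. Of 6 genes of MHC class II antigen presentation, which activated macrophages and dendritic cells express, 3 were listed at 0 in both libraries and 2 had a mean of at least 1 TPM, with a mean sum of 15.2 ± 3.94 TPM (SD, n = 2).

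**Figure D1:**
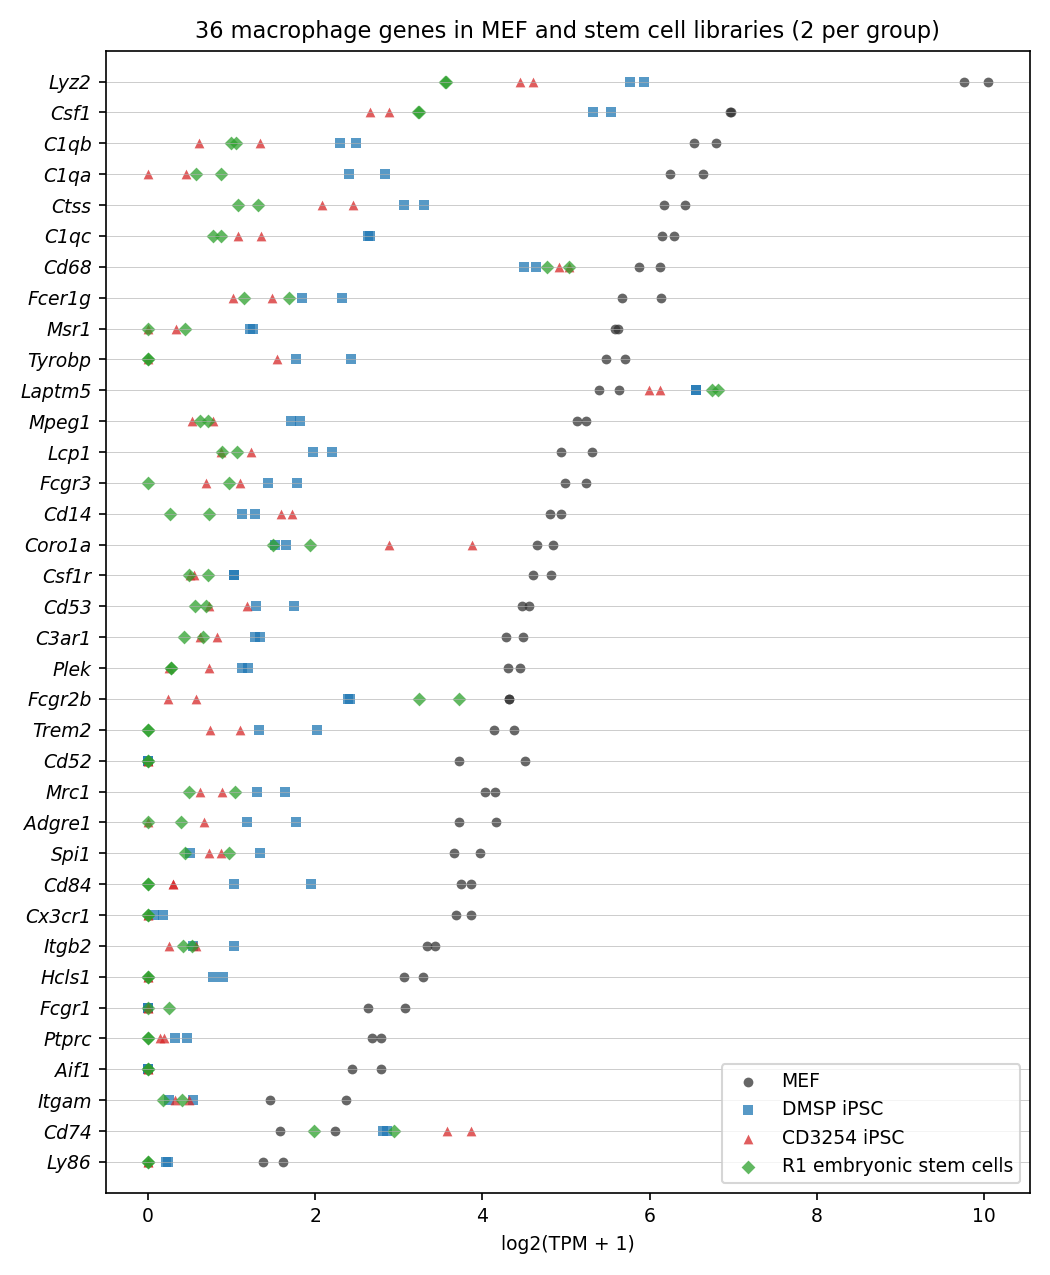
Levels of the 36 genes in MEF, DMSP iPSC, CD3254 iPSC and R1 libraries, as log2(TPM + 1) on the x axis with 1 point per library and 2 libraries per group, genes ordered by their MEF mean. MEF libraries are highest for all but Laptm5 and Cd74.

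In the pluripotent lines 34 of the 36 genes fell. The genes were chosen with earlier results of these data known, and all 36 had a mean of at least 1 TPM in MEF. In CD iPSC, DMSP iPSC and R1 cells 12, 26 and 10 of them reached that mean. A gene that passed the filter only through MEF could only fall. The counts of falls were thus partly fixed by the choice of genes, and are given as a description and not as a test. The same MEF libraries serve the 3 comparisons, so these are not independent. In CD iPSC 34 genes fell and 2 rose, where 35.4% of 17414 genes tested fell and 33.3% rose (adjusted p under 0.05 over all genes, limma on log2(TPM + 1), on which scale every fold change of this table is given and which understates changes of low genes). In DMSP iPSC 34 fell and 2 rose against 36.2% and 31.4% of all genes, and in R1 cells 34 fell and 1 rose against 32.9% and 36.2%. Lyz2 stood at 20.8 and 23.4 TPM in CD iPSC, 53.5 and 59.9 TPM in DMSP iPSC and 10.7 and 10.8 TPM in R1 cells. All 6 lay far under the MEF libraries, with log2 fold changes of -5.38 ± 0.13 (SE, limma adjusted p = 1.67e-07), -4.06 ± 0.13 (SE, limma adjusted p = 5.41e-07) and -6.35 ± 0.13 (SE, limma adjusted p = 7.88e-08).

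Levels were also set against MEF for the 32 members with at least 5 TPM in MEF and without Csf1. Their median was 2.16% of the MEF level in CD iPSC, 7.14% in DMSP iPSC and 1.46% in R1 cells. C1qb was at 0.528 and 1.53 TPM in CD iPSC, 3.91 and 4.63 TPM in DMSP iPSC and 1.08 and 0.984 TPM in R1 cells, log2 fold changes of -5.69 ± 0.26 (SE, limma adjusted p = 1.99e-06), -4.27 ± 0.26 (SE, limma adjusted p = 7.91e-06) and -5.65 ± 0.26 (SE, limma adjusted p = 1.98e-06). C1qa was at 0.368 and 0 TPM, 4.29 and 6.12 TPM and 0.484 and 0.828 TPM in the same order, with log2 fold changes of -6.22, -3.83 and -5.72. C1qc was at 1.10 and 1.56 TPM, 5.32 and 5.17 TPM and 0.831 and 0.715 TPM, with log2 fold changes of -5.01, -3.58 and -5.40. All 3 chains fell in each line, and among the lines DMSP iPSC had the highest value of each chain.

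Csf1r was at 0.412 and 0.465 TPM in CD iPSC, 1.03 and 1.04 TPM in DMSP iPSC and 0.642 and 0.404 TPM in R1 cells, log2 fold changes of -4.19, -3.69 and -4.11 that all passed. Spi1 was at 0.836 and 0.652 TPM, 1.53 and 0.414 TPM and 0.357 and 0.952 TPM, with log2 fold changes of -3.01, -2.89 and -3.11. Adgre1 was at 0.591 and 0 TPM, 2.40 and 1.27 TPM and 0.311 and 0 TPM, with -3.61, -2.47 and -3.75. Tyrobp was listed at 1.93 and 0 TPM in CD iPSC, 2.41 and 4.39 TPM in DMSP iPSC and at 0 in both R1 libraries. Ptprc was at 0.103 and 0.145 TPM in CD iPSC and 0.378 and 0.250 TPM in DMSP iPSC and was also listed at 0 in both R1 libraries. Both genes fell in each line, and Aif1, a cytoplasmic actin-bundling protein gene of microglia and macrophages, and Cd52, which encodes a surface peptide of leukocytes, were listed at 0 in all 6 stem cell libraries. The sum of the 8 defining markers was 5.87 and 4.35 TPM in CD iPSC, 21.3 and 23.3 TPM in DMSP iPSC and 3.71 and 3.88 TPM in R1 cells, against 342 and 393 TPM in MEF.

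Further members fell in the same way. Msr1 was at 0.258 and 0 TPM in CD iPSC, 1.38 and 1.34 TPM in DMSP iPSC and 0 and 0.355 TPM in R1 cells, with log2 fold changes of -5.44, -4.36 and -5.38. Mpeg1, which encodes the pore-forming protein perforin-2, was at 36.9 and 34.02 TPM in MEF and at 0.441 and 0.719 TPM, 2.28 and 2.51 TPM and 0.542 and 0.645 TPM in the same order of lines, with -4.53, -3.42 and -4.51. Ctss was at 70.9 and 85.1 TPM in MEF and at 3.24 and 4.45 TPM, 8.88 and 7.37 TPM and 1.49 and 1.11 TPM, with -4.03, -3.11 and -5.10. None of these values overlapped MEF. The log2 fold changes were -3.66, -3.07 and -3.83 for C3ar1 and -3.89, -3.22 and -4.11 for Plek. Cd14 was at 27.0 and 29.7 TPM in MEF and at 2.02 and 2.29 TPM, 1.44 and 1.17 TPM and 0.657 and 0.198 TPM, and the fractalkine receptor gene Cx3cr1 was at 13.6 and 11.9 TPM in MEF, at most 0.130 TPM in DMSP iPSC and listed at 0 in the other stem cell libraries. The remaining members that fell were Hcls1, Lcp1, Fcgr1, Fcgr3, Fcer1g, Mrc1, Itgb2, Trem2, Cd53, Cd84, Coro1a, Fcgr2b, Cd68, Itgam, Ly86, Aif1 and Cd52, with log2 fold changes from -4.66 to -0.84 where a line was not listed at 0 in both libraries. Over the 36 genes, both libraries of a line lay below both MEF libraries for 34 in each line, against 41.1%, 43.4% and 39.3% of all genes in CD iPSC, DMSP iPSC and R1 cells. They lay above for 2, 2 and 1, against 40.6%, 40.3% and 45.0%.

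Laptm5 and Cd74 went the other way. Laptm5, a lysosomal membrane protein gene of blood cells, was at 48.6 and 41.1 TPM in MEF, 68.7 and 62.5 TPM in CD iPSC, 93.1 and 93.4 TPM in DMSP iPSC and 112 and 106 TPM in R1 cells. No stem cell library overlapped MEF, and Laptm5 rose by 0.54 ± 0.11 (SE, limma adjusted p = 0.00356), 1.04 ± 0.11 (SE, limma adjusted p = 0.000126) and 1.27 ± 0.11 (SE, limma adjusted p = 4.33e-05). Cd74 rose in CD iPSC to 13.5 and 10.9 TPM (log2 fold change 1.81 ± 0.35 SE, limma adjusted p = 0.00261) and in DMSP iPSC to 6.02 and 6.25 TPM (0.92 ± 0.35 SE, limma adjusted p = 0.0483), and its R1 values of 2.96 and 6.67 TPM did not pass (limma adjusted p = 0.196). The call of Cd74 in DMSP iPSC was lost without any 1 of the 4 libraries compared, with log2 fold changes of 0.60 to 1.25 (limma adjusted p 0.0631 to 0.292). Cd68, a lysosomal glycoprotein gene, fell in each line but stayed at 29.2 and 31.7 TPM in CD iPSC, 21.6 and 23.9 TPM in DMSP iPSC and 26.4 and 31.9 TPM in R1 cells. Fcgr2b, the inhibitory Fc receptor gene, was at 8.42 and 12.2 TPM in R1 cells against 19.0 and 19.0 TPM in MEF and 0.493 and 0.177 TPM in CD iPSC. Its call in R1 cells was lost without either MEF library or without R1 library 1 (limma adjusted p 0.0593 to 0.065), and that of Coro1a in CD iPSC without MEF library 2 (limma adjusted p = 0.0722).

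Csf1 fell with its receptor. It was at 125 and 123 TPM in MEF, 6.36 and 5.31 TPM in CD iPSC, 39.0 and 45.3 TPM in DMSP iPSC and 8.49 and 8.39 TPM in R1 cells, with log2 fold changes of -4.20 ± 0.13 (SE, limma adjusted p = 4.44e-07), -1.54 ± 0.13 (SE, limma adjusted p = 3.86e-05) and -3.73 ± 0.13 (SE, limma adjusted p = 6.56e-07). The fibroblast markers fell beside it, all 15 of 15 in each line, from a sum of 25430.1 and 24067 TPM in MEF to at most 567 TPM in any stem cell library. Of 64 tested genes of the further list of 72 macrophage genes, 52 fell and 7 rose in CD iPSC, 53 and 5 in DMSP iPSC, and 52 and 8 in R1 cells. Among them Arhgdib, a gene of blood cells, fell from 285 and 280.1 TPM in MEF to 7.57 and 8.51 TPM in CD iPSC, and Clec4n, a C-type lectin receptor gene, from 39.4 and 36.7 TPM to 0.409 and 0 TPM. The chemokine gene Ccl7 fell from 388 and 471 TPM to 1.91 and 3.91 TPM. General lysosomal genes fell as well, 16 of 16 in each line, while of 9 tested growth factor and chemokine genes that act on myeloid cells 6, 8 and 7 fell in CD iPSC, DMSP iPSC and R1 cells.

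The 2 kinds of iPSC differed in the level of these RNAs. Between CD iPSC and DMSP iPSC 16 of 36 members were lower in CD iPSC and 1 was higher, where 18.5% of all genes were lower and 20.0% higher. Lyz2 was lower in CD iPSC by a log2 fold change of -1.32 ± 0.13 (SE, limma adjusted p = 0.000571), C1qa by -2.39 ± 0.26 (SE, limma adjusted p = 0.000862), C1qc by -1.43 ± 0.17 (SE, limma adjusted p = 0.00117) and C1qb by -1.42 ± 0.26 (SE, limma adjusted p = 0.00549). For each of these genes no CD iPSC library overlapped DMSP iPSC. Csf1 showed the largest difference, -2.66 ± 0.13 (SE, limma adjusted p = 0.000125), ahead of C1qa. Fcgr2b came after C1qa, with 0.493 and 0.177 TPM in CD iPSC against 4.33 and 4.25 TPM in DMSP iPSC, -2.0 ± 0.22 (SE, limma adjusted p = 0.000848). The others that were lower were Mpeg1, Msr1, Hcls1, Lcp1, Ctss, Laptm5, Cd84, Adgre1, Plek and C3ar1, with log2 fold changes from -1.19 to -0.50. Of these, 7 lost their call when 1 library was left out (limma adjusted p 0.0548 to 0.16). C3ar1 lost it without any 1 of the 4 libraries, and Plek without CD iPSC library 1 or either DMSP iPSC library. Laptm5 lost it without either DMSP iPSC library, Cd84 without either CD iPSC library and Adgre1 without CD iPSC library 2 or DMSP iPSC library 1. Ctss lost it without DMSP iPSC library 1 and Lcp1 without DMSP iPSC library 2. Coro1a, an actin-binding protein gene of leukocytes, was the one that was higher, at 6.37 and 13.6 TPM against 1.87 and 2.14 TPM.

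Csf1r (-0.50 ± 0.18 SE, limma adjusted p = 0.0649), Tyrobp (-1.32 ± 0.48 SE, limma adjusted p = 0.0654), Ptprc (-0.22 ± 0.16 SE, limma adjusted p = 0.32) and Spi1 (-0.12 ± 0.32 SE, limma adjusted p = 0.814) did not pass between the iPSC groups. Fibroblast markers differed in the same direction, 9 of 15 lower in CD iPSC and none higher, with sums of 395 and 339.7 TPM against 546 and 567 TPM, and their part in the result was not tested. R1 cells, labelled as derived from a blastocyst, gave a summed level of 174 and 182.8 TPM for the 35 genes without Csf1, beside 158 and 163 TPM in CD iPSC and 236 and 248 TPM in DMSP iPSC. In R1 cells Laptm5 and Cd68 made up most of this sum.

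The 3 reprogramming tables in TPM, each normalized separately, listed lower sums of these RNAs than the MEF libraries, and values are set side by side without a test. The 35 genes without Csf1 summed to 19.5 and 20.4 TPM in DMSO and 23.8 and 23.5 TPM in CD3254 cultures of the first table, 25.1 and 27.0 TPM in CTR and 20.7 and 21.4 TPM with Rxra overexpression, and 243 and 285 TPM in shCTR and 512 and 508 TPM in shE3. Mitochondrially encoded genes took 50.9% to 62.0% of the TPM in the 8 libraries of the first 2 tables, 11.8% to 15.5% in the knockdown table and 7.46% to 17.4% in the MEF and stem cell table. In the 2 tables with a targeted gene it followed the labels, Rxra at 8.70 and 9.57 TPM in CTR and 21.7 and 21.7 TPM with overexpression, and Exosc3 at 8.86 and 10.2 TPM in shCTR and 5.97 and 4.01 TPM in shE3. The other tables have no targeted gene to check.

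In the CD3254 and Rxra tables the lineage markers were close to 0. Only 6 of 36 genes passed the filter of at least 1 TPM in 2 libraries (Lyz2, Cd53, Cd14, Cd68, Lcp1 and Csf1), and 29 were under 1 TPM in every library of either table. The 8 defining markers summed to 1.29 and 1.40 TPM in DMSO, 1.75 and 1.35 TPM in CD3254, 1.55 and 2.03 TPM in CTR and 0.975 and 0.640 TPM with Rxra overexpression. None of the 8 defining markers passed the filter in these 2 tables, so the results on the 6 genes come without a lineage marker beside them.

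In CD3254 cultures 3 of the 6 rose and 3 fell, where 43.1% of 13006 genes rose and 19.5% fell. Lcp1, the actin-bundling L-plastin gene, was at 0.388 and 0.693 TPM in DMSO and 3.67 and 4.37 TPM in CD3254 (log2 fold change 1.71 ± 0.13 SE, limma adjusted p = 0.00015). Lcp1 passed the filter of 1 TPM only through the CD3254 libraries, so it could enter the test only as a rise. Cd68 was at 2.93 and 2.57 TPM and 4.68 and 4.74 TPM (0.61 ± 0.09 SE, limma adjusted p = 0.00162) and Lyz2 at 3.33 and 2.93 TPM and 4.15 and 3.95 TPM (0.29 ± 0.09 SE, limma adjusted p = 0.0318). Cd53, a tetraspanin gene of leukocytes, was at 3.58 and 3.46 TPM in DMSO and 1.46 and 1.82 TPM in CD3254 (-0.78 ± 0.10 SE, limma adjusted p = 0.00107). Cd14, the lipopolysaccharide co-receptor gene, was at 3.78 and 4.83 TPM and 3.24 and 2.68 TPM (-0.42 ± 0.13 SE, limma adjusted p = 0.0289) and Csf1 at 23.2 and 24.8 TPM and 16.4 and 17.0 TPM (-0.50 ± 0.07 SE, limma adjusted p = 0.00109). For all 6 genes the pairs of libraries did not overlap, a pattern that 54.7% of all genes showed upward and 27.6% downward.

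Lyz2 lost its call without DMSO library 2 or without either CD3254 library (limma adjusted p 0.0609 to 0.133), and Cd14 without DMSO library 2 or CD3254 library 2 (limma adjusted p 0.13 and 0.0906). The median of all genes lay 0.18 above 0 on the log2 scale in this comparison. Relative to the median gene 30.5% of genes were called higher and 31.1% lower, and there Lyz2 did not pass (limma adjusted p = 0.309) while the other 5 kept their call.

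Rxra overexpression gave the same direction for 4 of the 6 genes and the opposite one for Lyz2. There 2 of the 6 rose and 3 fell, where 68.6% of 13305 genes rose and 14.0% fell. Lyz2 was at 8.47 and 9.64 TPM in CTR and 4.00 and 4.35 TPM with overexpression (-0.96 ± 0.10 SE, limma adjusted p = 0.000151), Cd53 at 4.94 and 5.05 TPM and 1.07 and 1.37 TPM (-1.44 ± 0.10 SE, limma adjusted p = 3.56e-05) and Csf1 at 17.7 and 17.7 TPM and 5.46 and 4.55 TPM (-1.65 ± 0.10 SE, limma adjusted p = 2.32e-05). Lcp1 rose from 0.410 and 0.605 TPM to 4.08 and 3.64 TPM (1.69 ± 0.11 SE, limma adjusted p = 2.62e-05) and Cd68 from 3.15 and 3.45 TPM to 5.77 and 5.67 TPM (0.64 ± 0.09 SE, limma adjusted p = 0.000529). Here too Lcp1 passed the filter only through the treated libraries, so its shared direction in the CD3254 and Rxra tables was fixed by the filter. Cd14 overlapped between the groups at 1.86 and 2.00 TPM and 1.70 and 1.96 TPM and did not pass (limma adjusted p = 0.64). The other 5 genes did not overlap, as 74.3% of all genes upward and 17.1% downward.

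The median gene lay 0.62 above 0 here. Relative to it 35.1% of genes were called higher and 35.5% lower, Cd68 no longer passed (limma adjusted p = 0.691) and Cd14 was called lower, with a log2 fold change of -0.54. Fibroblast markers fell beside Csf1 in both tables, 13 of 15 with CD3254 and 13 of 15 with Rxra overexpression. Of the further macrophage genes, 9 of 18 tested rose and 3 fell with CD3254, and 16 of 22 rose and 4 fell with Rxra overexpression. Relative to the median gene these counts were 6 higher and 5 lower with CD3254 and 7 higher and 7 lower with Rxra overexpression. Among them Gmfg rose with CD3254 from 1.25 and 1.01 TPM to 5.83 and 5.69 TPM and Syk, a kinase gene that many cell types use, from 0.733 and 0.672 TPM to 3.82 and 3.70 TPM. Syk passed the filter only through the CD3254 libraries.

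**Figure D2:**
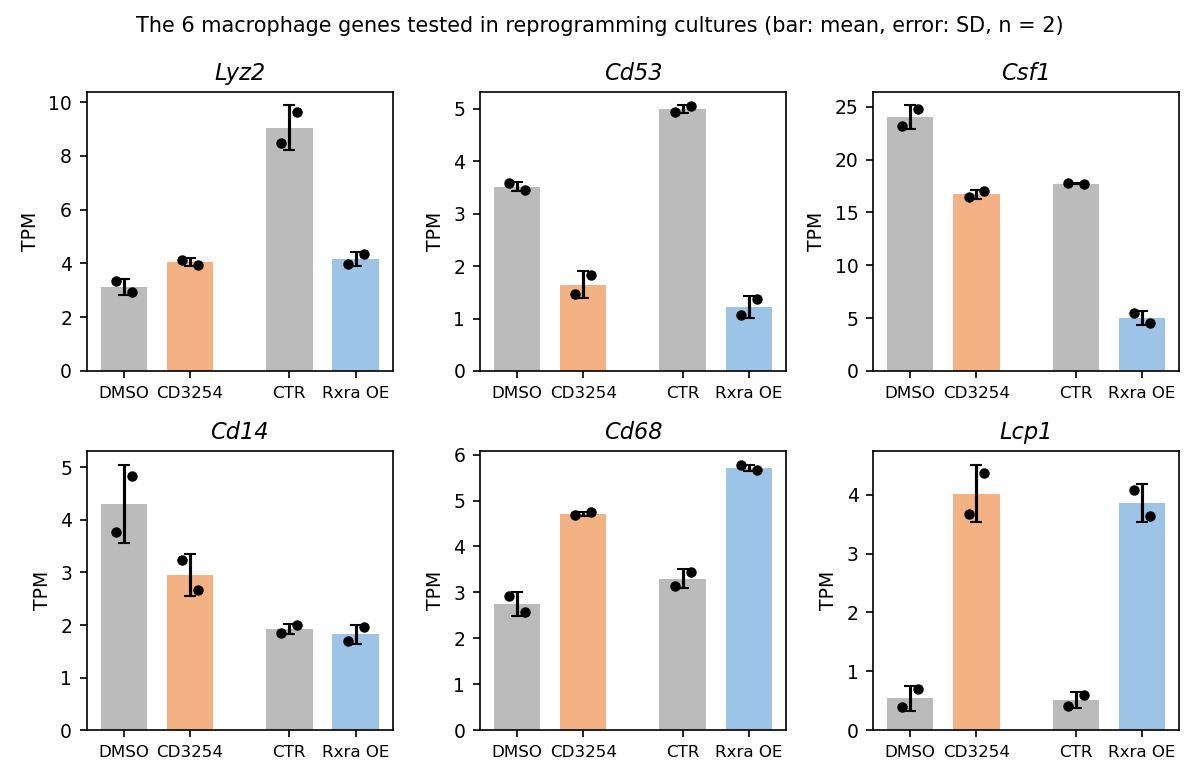
Levels in TPM of the 6 tested genes in DMSO and CD3254 cultures and in CTR and Rxra OE cultures. Bars are means, error bars the SD and points the 2 libraries; the 2 tables were normalized separately. Cd53 and Csf1 are lower and Lcp1 and Cd68 higher in both treated groups, while Lyz2 differs in direction.

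With Exosc3 knockdown a subset of the macrophage genes rose. Of 26 members that passed the filter 8 rose and none fell, where 4.85% of 15700 genes rose and 12.3% fell (14.2% and 13.9% relative to the median gene), and 10 members stayed under 1 TPM in every library. The median log2 fold change of the 26 was 0.30 against -0.04 over all genes tested. Lyz2 was at 126 and 154 TPM in shCTR and 339 and 337 TPM in shE3 (1.27 ± 0.11 SE, limma adjusted p = 3.39e-05). Tyrobp was at 3.05 and 1.74 TPM and 8.63 and 7.45 TPM (1.44 ± 0.20 SE, limma adjusted p = 0.00056) and Plek, the gene of the protein kinase C substrate pleckstrin, at 3.68 and 4.84 TPM and 13.6 and 11.4 TPM (1.36 ± 0.16 SE, limma adjusted p = 0.000206). In each of these genes both knockdown libraries lay above both controls. Cd84, a self-binding receptor gene of leukocytes, was at 2.16 and 2.15 TPM and 5.65 and 7.37 TPM (1.24 ± 0.17 SE, limma adjusted p = 0.000598) and Cd53 at 42.5 and 45.8 TPM and 59.5 and 59.3 TPM (0.42 ± 0.10 SE, limma adjusted p = 0.0148). Ctss, which encodes cathepsin S, was at 4.39 and 3.63 TPM and 6.06 and 8.42 TPM (0.71 ± 0.17 SE, limma adjusted p = 0.0181). Trem2, a lipid-sensing receptor gene that signals through TYROBP, and C3ar1, the receptor gene for complement C3a, were the other 2 that rose, to 3.51 and 3.74 TPM and 1.96 and 1.93 TPM. Ctss lost its call without either shCTR library or without shE3 library 2 (limma adjusted p 0.0677 to 0.162) and Cd53 without either shE3 library (limma adjusted p 0.208 and 0.215). Trem2 lost it without shCTR library 1 (limma adjusted p = 0.0701) and C3ar1 without shCTR library 2 (limma adjusted p = 0.121).

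Of the 8 defining markers Tyrobp alone passed, and the C1q chains, Csf1r and Adgre1 did not. Ptprc (0.406 and 0.245 TPM in shCTR and 0.662 and 0.346 TPM in shE3) and Spi1 (0.555 and 0.526 TPM and 0.900 and 0.531 TPM) were under the filter. C1qb was at 7.49 and 9.91 TPM in shCTR and 5.64 and 7.74 TPM in shE3 (-0.34 ± 0.17 SE, limma adjusted p = 0.211), C1qa at 1.51 and 3.205 TPM and 1.39 and 0.689 TPM (-0.69 ± 0.27 SE, limma adjusted p = 0.106) and C1qc at 1.89 and 1.42 TPM and 1.74 and 2.01 TPM (0.12 ± 0.20 SE, limma adjusted p = 0.73). Without shE3 library 1 C1qa was called lower, with a log2 fold change of -0.94 (limma adjusted p = 0.00538). Csf1r was at 1.65 and 2.37 TPM and 3.103 and 2.48 TPM (0.34 ± 0.20 SE, limma adjusted p = 0.264) and Adgre1 at 1.10 and 1.11 TPM and 1.19 and 1.52 TPM (0.16 ± 0.21 SE, limma adjusted p = 0.653). Csf1 itself was at 40.7 and 48.1 TPM and 37.7 and 39.3 TPM (-0.20 ± 0.11 SE, limma adjusted p = 0.254). The summed level of the 8 defining markers was 17.6 and 20.5 TPM in shCTR and 23.3 and 22.8 TPM in shE3, whereas the 35 genes without Csf1 went from 243 and 285 TPM to 512 and 508 TPM, with Lyz2 making up 53.0% and 66.2% of those sums.

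Over the 26 genes, 15 had both knockdown libraries above both controls, against 24.1% of all genes, and 2 had both below, against 36.3%. Of 34 further macrophage genes tested 8 rose and 2 fell (13 and 2 relative to the median gene), led by the myeloid receptor genes Lilrb4a (2.1 and 2.46 TPM to 6.92 and 7.80 TPM) and Clec4n (2.05 and 1.79 TPM to 5.28 and 6.16 TPM) and by the phagosomal metal transporter gene Slc11a1 (0.735 and 1.20 TPM to 3.65 and 3.55 TPM). All 16 general lysosomal genes had a positive fold change and 2 passed, or 13 relative to the median gene. S100a8, a neutrophil and monocyte gene, was at 192 and 208 TPM in shCTR and 144 and 137 TPM in shE3, the opposite direction to Lyz2. Of 9 tested growth factor and chemokine genes that act on myeloid cells 1 rose and 2 fell (2 and 1 relative to the median gene). The 1 that rose was Il34, the gene of the second ligand of CSF1R, from 0.966 and 1.47 TPM to 2.81 and 2.79 TPM (0.79 ± 0.20 SE, limma adjusted p = 0.02). Without a filter on low values limma called 0 members in this comparison and 2 of 30458 genes in all, with 10 of 35 members at an unadjusted p under 0.05, all higher. Relative to the median gene 9 members were called higher and 0 lower. There Laptm5 and Itgb2 gained a call (limma adjusted p 0.0363 and 0.036). C3ar1, which was listed at 0 in 1 control library, was not called (limma adjusted p = 0.0662).

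**Figure D3:**
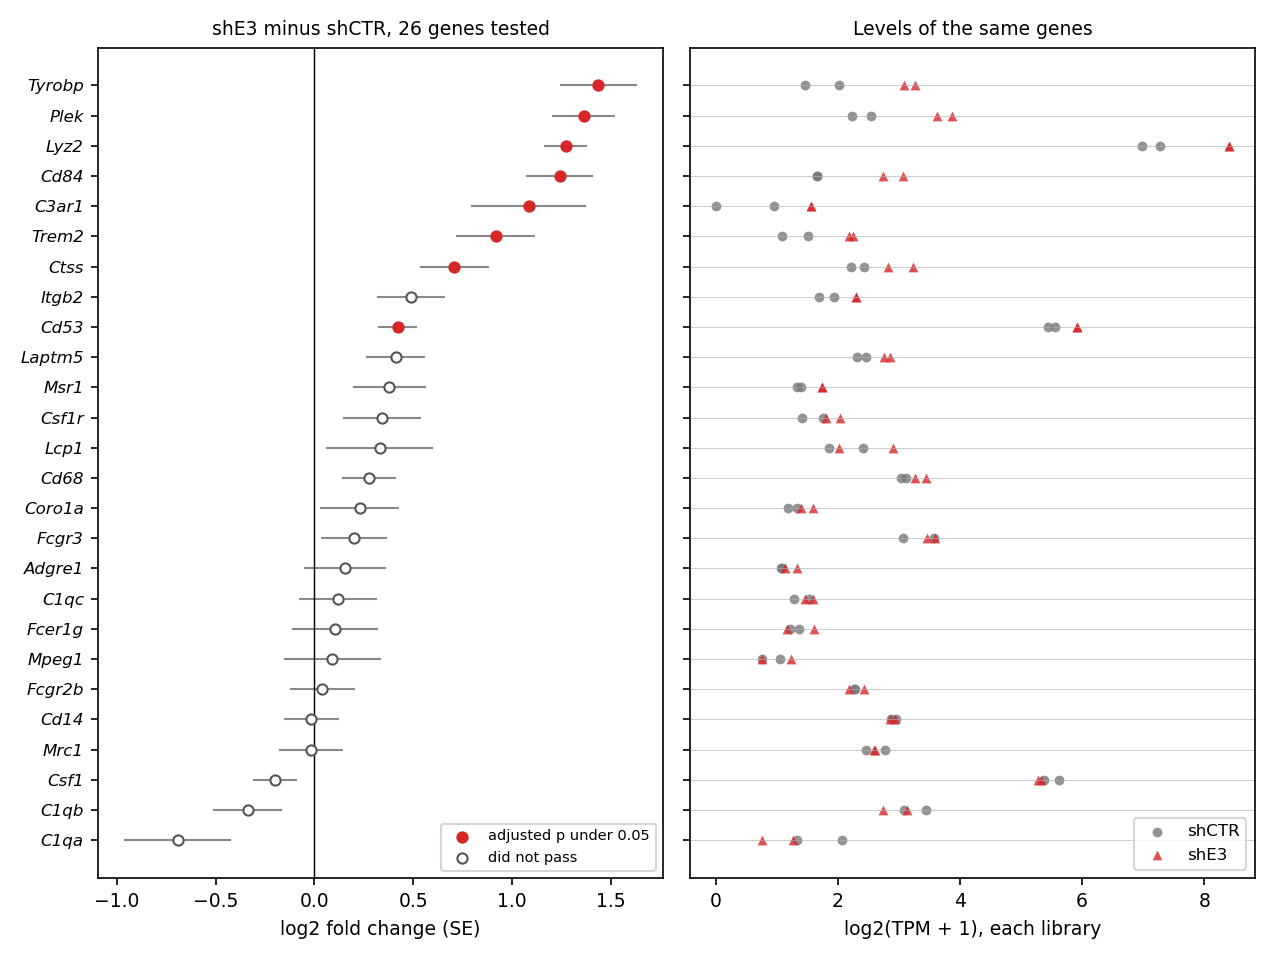
Left, log2 fold changes of shE3 minus shCTR on the log2(TPM + 1) scale for the 26 tested genes, bars showing the SE and filled points an adjusted p under 0.05. Right, the level of each gene in each of the 4 libraries; Lyz2, Plek, Tyrobp and Cd84 are above both controls, while C1qa and C1qb are not.

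The actinomycin D table gives CPM (read counts scaled to the total of the library but not to transcript length), so levels are compared within a gene only, and 30 of the 36 genes passed the filter of 1 CPM in 2 libraries. At 0 h 13 of the macrophage RNAs were lower in CD3254 than in DMSO cultures. None of the 30 rose and 13 fell, where 6.41% of 17064 genes fell and 8.22% rose (9.27% and 6.77% relative to the median gene), and the median log2 fold change was -0.68 against 0.19 over all genes. Lyz2 was at 274 and 396 CPM in DMSO and 109.5 and 173 CPM in CD3254 (-1.25 ± 0.22 SE, limma adjusted p = 0.00854). Cd53 was at 15.7 and 30.4 CPM and 6.49 and 6.95 CPM (-1.57 ± 0.25 SE, limma adjusted p = 0.00546), Mrc1 at 24.1 and 36.2 CPM and 9.76 and 14.2 CPM (-1.26 ± 0.22 SE, limma adjusted p = 0.00862) and Laptm5 at 27.2 and 36.8 CPM and 9.80 and 16.6 CPM (-1.24 ± 0.24 SE, limma adjusted p = 0.011). In each of these both CD3254 libraries lay below both DMSO libraries. The first table also compared CD3254 with DMSO, and not all genes tested in both tables shared a direction. Lyz2, Cd68 and Lcp1 were called higher there, with log2 fold changes of 0.29, 0.61 and 1.71. At 0 h they stood at -1.25, -0.72 and -0.22, and of these only Lyz2 passed. Cd53, Cd14 and Csf1 had negative fold changes in both tables, and of these only Cd53 passed at 0 h. The cause of the difference was not tested.

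C1qb was at 13.8 and 19.1 CPM in DMSO and 6.08 and 11.4 CPM in CD3254 (-0.88 ± 0.26 SE, limma adjusted p = 0.0475) and Adgre1 at 4.1 and 7.06 CPM and 2.03 and 2.59 CPM (-0.96 ± 0.27 SE, limma adjusted p = 0.0407). The Fc receptor genes Fcgr2b and Fcgr3 and the adaptor gene Fcer1g fell too. Fcgr2b went from 14.9 and 22.5 CPM to 5.33 and 8.996 CPM (-1.28 ± 0.26 SE, limma adjusted p = 0.0153), Fcgr3 from 11.3 and 11.8 CPM to 4.63 and 6.20 CPM and Fcer1g from 6.96 and 7.32 CPM to 1.74 and 3.29 CPM. Itgam, Cd84, Plek and Trem2 were the others that fell, with log2 fold changes from -1.13 to -0.81. Csf1r (18.1 and 22.8 CPM and 14.0 and 18.9 CPM, -0.31 ± 0.19 SE, limma adjusted p = 0.252), C1qa (4.46 and 5.49 CPM and 3.02 and 6.79 CPM, limma adjusted p = 0.858) and C1qc (8.67 and 11.4 CPM and 5.79 and 12.1 CPM, limma adjusted p = 0.665) overlapped between the groups and did not pass. Tyrobp (3.74 and 3.28 CPM and 0.951 and 3.39 CPM), Ptprc (1.19 and 1.89 CPM and 1.45 and 1.67 CPM), Spi1 (3.17 and 3.47 CPM and 2.07 and 2.15 CPM) and Csf1 (92.4 and 73.2 CPM and 71.9 and 65.3 CPM) did not pass either, with limma adjusted p of 0.2, 0.96, 0.177 and 0.189.

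The number of calls at 0 h depended on single libraries, for these genes and over all genes. Without CD3254 library 1 at 0 h 2 members were called lower, of 328 genes called lower in all, and without DMSO library 2 at 0 h 1 member of 199 genes. Without CD3254 library 2 the members were 17 of 2248 genes and without DMSO library 1 they were 14 of 1452 genes. The members that lost their call kept a negative log2 fold change, from -1.13 to -0.48 without CD3254 library 1 and from -1.22 to -0.60 without DMSO library 2. Itgam, for example, was at -1.08 with all libraries and at -1.13 and -1.03 in these fits. C1qb moved most without CD3254 library 1, from -0.88 to -0.48, and Trem2 most without DMSO library 2, from -1.13 to -0.63. With the counts scaled to the ERCC spike-ins, RNAs added in known amount, 5 were called, of 288 genes in all. On the recovered reads edgeR and DESeq2 called 16 each, of 2961 and 4137 genes in all. How the spike-ins were dosed is not stated in the labels. The 35 genes without Csf1 summed to 241 and 369.5 CPM in the CD3254 libraries 1 and 2 at 0 h and to 523 and 729 CPM in the DMSO libraries 1 and 2. Both CD3254 libraries lay below both DMSO libraries for 20 of the 30 genes, against 19.8% of all genes, and above for 0, against 39.6%. The general lysosomal list fell alongside, 9 of 16 genes, and the fibroblast list, 9 of 15 genes.

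Under actinomycin D the macrophage RNAs gained share in the CD3254 arm. Of the 30 genes 18 rose from 0 h to 8 h and none fell, where 13.2% of all genes rose and 41.3% fell. Lyz2 went from 109.5 and 173 CPM at 0 h over 256 and 269 CPM at 4 h to 434 and 468 CPM at 8 h (1.70 ± 0.22 SE, limma adjusted p = 0.0027 from 0 h to 8 h). Mrc1 went from 9.76 and 14.2 CPM over 19.5 and 19.5 CPM to 43.9 and 41.9 CPM (1.78 ± 0.22 SE, limma adjusted p = 0.0027) and Laptm5 from 9.80 and 16.6 CPM over 25.9 and 28.7 CPM to 43.8 and 48.8 CPM (1.78 ± 0.24 SE, limma adjusted p = 0.0027). In these genes the 4 h libraries lay between the 0 h and 8 h libraries without overlap. C1qb went from 6.08 and 11.4 CPM over 17.8 and 16.5 CPM to 24.3 and 24.9 CPM (1.45 ± 0.26 SE, limma adjusted p = 0.00296) and Adgre1 from 2.03 and 2.59 CPM to 6.56 and 8.08 CPM at 8 h (1.33 ± 0.27 SE, limma adjusted p = 0.00338). Csf1r rose least among the defining markers that passed, from 14.0 and 18.9 CPM to 24.2 and 24.6 CPM (0.56 ± 0.19 SE, limma adjusted p = 0.0302), and Tyrobp rose from 0.951 and 3.39 CPM to 5.50 and 3.89 CPM (0.95 ± 0.34 SE, limma adjusted p = 0.038). Both lost their call without CD3254 library 1 at 0 h or without either library at 8 h.

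The Fc receptor gene Fcgr2b went from 5.33 and 8.996 CPM over 12.9 and 13.9 CPM to 27.1 and 24.2 CPM (1.74 ± 0.26 SE, limma adjusted p = 0.00294) and Cd53 from 6.49 and 6.95 CPM over 12.5 and 13.4 CPM to 21.4 and 22.8 CPM (1.58 ± 0.25 SE, limma adjusted p = 0.00296). Fcer1g went from 1.74 and 3.29 CPM to 9.22 and 9.24 CPM (1.58 ± 0.28 SE, limma adjusted p = 0.00296) and Cd68 from 8.68 and 15.1 CPM to 27.5 and 25.4 CPM (1.13 ± 0.24 SE, limma adjusted p = 0.00361). The other members that rose were Fcgr3, Cd84, Trem2, Itgam, Ctss, Plek and Msr1, with log2 fold changes from 0.78 to 1.63. Ctss lost its call without CD3254 library 1 at 0 h (limma adjusted p = 0.0713), Plek without library 1 at 0 h or at 8 h (limma adjusted p 0.0608 and 0.0649) and Msr1 without library 1 at 0 h or library 2 at 8 h (limma adjusted p 0.093 and 0.0573). Over the 30 genes, 26 had both 8 h libraries above both 0 h libraries, against 24.2% of all genes, and 1, Coro1a, had both below, against 56.3%. C1qa (3.02 and 6.79 CPM to 9.28 and 7.96 CPM, limma adjusted p = 0.0686), C1qc (5.79 and 12.1 CPM to 15.8 and 15.98 CPM, limma adjusted p = 0.0616), Spi1 (2.07 and 2.15 CPM to 3.90 and 3.43 CPM, limma adjusted p = 0.0659) and Ptprc (1.45 and 1.67 CPM to 2.66 and 2.499 CPM, limma adjusted p = 0.134) did not pass, although their 8 h libraries lay above their 0 h libraries. Csf1 was at 71.9 and 65.3 CPM, 39.8 and 37.5 CPM and 70.0 and 61.8 CPM at the 3 times and did not pass between 0 h and 8 h (-0.06 ± 0.14 SE, limma adjusted p = 0.748).

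In the DMSO arm, which shares no library with the CD3254 arm, 3 of the 30 genes rose and none fell, where 3.73% of all genes rose and 27.2% fell. Both 8 h libraries lay above both 0 h libraries for 11 of the 30 (14.8% of all genes) and below for 3 (50.7%). The genes that rose were Fcer1g, from 6.96 and 7.32 CPM to 18.8 and 12.5 CPM (1.01 ± 0.28 SE, limma adjusted p = 0.0228), Cd53, from 15.7 and 30.4 CPM to 37.2 and 40.3 CPM (0.80 ± 0.25 SE, limma adjusted p = 0.033), and Ctss, from 5.03 and 4.60 CPM to 9.84 and 7.41 CPM (0.72 ± 0.23 SE, limma adjusted p = 0.0381). Without DMSO library 1 at 0 h or at 8 h limma called none (3 and 2 members at an unadjusted p under 0.05), without library 2 at 0 h 5 (Ctss not among them), and on the recovered reads edgeR called 11 and DESeq2 13. Cd53 lost its call also without DMSO library 2 at 8 h (limma adjusted p = 0.0828). Over all 17064 genes edgeR called 4684 and DESeq2 5633 in this arm. Lyz2 was at 274 and 396 CPM at 0 h, 391 and 372 CPM at 4 h and 528 and 412 CPM at 8 h (0.50 ± 0.22 SE, limma adjusted p = 0.105). C1qb was at 13.8 and 19.1 CPM and 22.5 and 17.6 CPM (0.28 ± 0.26 SE, limma adjusted p = 0.428) and Csf1r at 18.1 and 22.8 CPM and 21.6 and 18.1 CPM (-0.04 ± 0.19 SE, limma adjusted p = 0.893), with overlapping libraries. Tyrobp reached 7.92 and 7.28 CPM (0.93 ± 0.34 SE, limma adjusted p = 0.0605), C1qa 7.02 and 3.84 CPM, C1qc 15.9 and 8.91 CPM, Adgre1 8.22 and 5.59 CPM, Spi1 2.70 and 2.73 CPM, Ptprc 2.04 and 0.780 CPM and Csf1 81.6 and 82.0 CPM, and none of these passed.

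CPM is a share of a library and does not show whether the amount of an RNA changed. The median gene moved by -0.33 in the DMSO arm and -0.34 in the CD3254 arm on the CPM scale. Relative to the median gene 14 members were called higher in the DMSO arm (17.0% of all genes higher, 13.4% lower) and 24 in the CD3254 arm (24.7% higher, 29.4% lower). Scaled to the spike-ins, the 27 members with at least 1 CPM at 0 h in both arms stood at a median of 177% of their 0 h level after 8 h in the CD3254 arm and 103% in the DMSO arm. Lyz2 stood at 259% and 118% on that scale and Csf1 at 73.8% and 80.9%. On the CPM scale the medians were 216% and 123%.

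**Figure D4:**
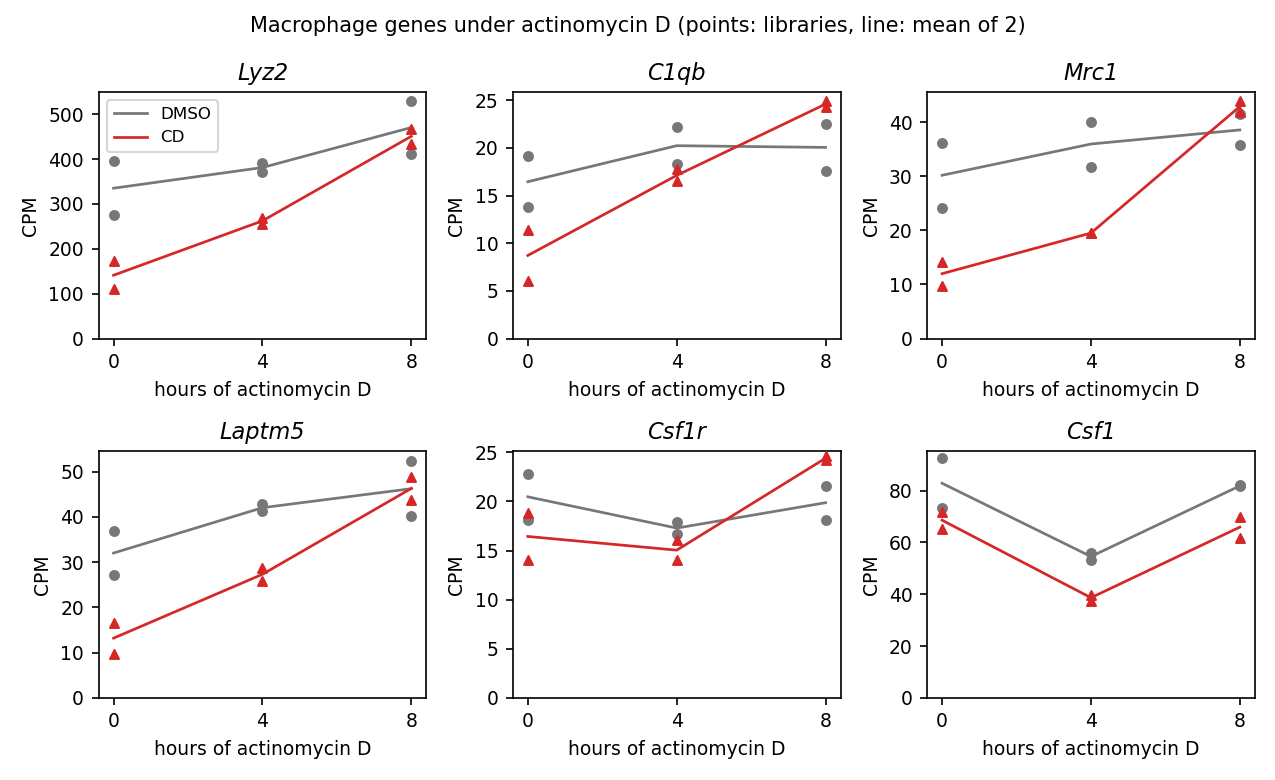
CPM of 6 genes at 0, 4 and 8 h of actinomycin D, points for the 2 libraries of each time, lines through the means, DMSO in grey and CD3254 in red. The CD3254 libraries of Lyz2, C1qb, Mrc1 and Laptm5 start below the DMSO libraries and lie among or above them at 8 h, and Csf1 is lowest at 4 h.

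The change over 8 h was not shown to differ between the arms. The difference of the changes, CD3254 minus DMSO, was positive for 28 of the 30 genes with a median of 0.62 against -0.02 over all genes, and limma called none of them, with 1 gene or 0.00586% of all genes called. At an unadjusted p under 0.05 limma counted 11 of the 30, edgeR 12 and DESeq2 9, all with a positive difference, against 11.4%, 12.4% and 11.7% of all genes, and neither edgeR nor DESeq2 on the recovered reads called a member after adjustment. The differences were 1.41 ± 0.32 (SE, limma adjusted p = 0.298) for Mrc1, 1.20 ± 0.31 (SE, limma adjusted p = 0.362) for Lyz2, 1.18 ± 0.37 (SE, limma adjusted p = 0.398) for C1qb, 1.05 ± 0.38 (SE, limma adjusted p = 0.398) for Adgre1 and 0.59 ± 0.27 (SE, limma adjusted p = 0.44) for Csf1r. For Spi1, C1qa, C1qc, Ptprc, Csf1 and Tyrobp they were 0.80, 0.71, 0.60, 0.60, -0.05 and 0.01. Without CD3254 library 2 at 0 h limma called 4 members higher, Lyz2, C1qb, Mrc1 and Laptm5, and 349 of 17064 genes higher in all. The 0 h libraries enter both this difference and the 0 h comparison, so the lower start and the larger gain of the CD3254 arm are not separate observations.

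**Figure D5:**
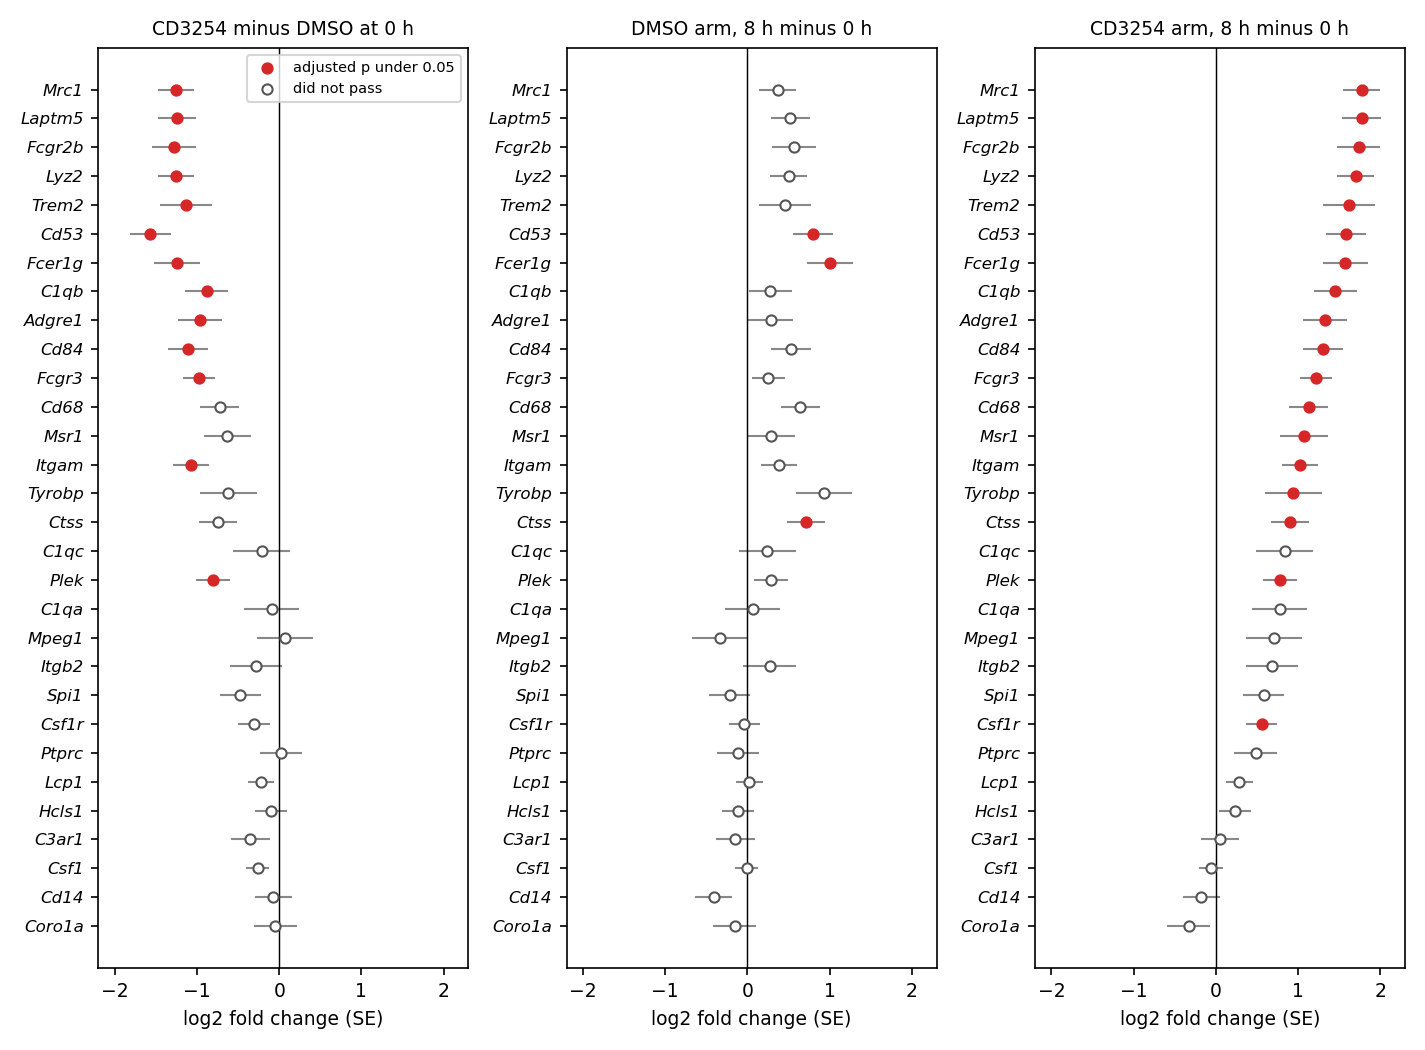
Log2 fold changes with SE on the log2(CPM + 1) scale for the 30 tested genes, ordered by the CD3254 arm: CD3254 minus DMSO at 0 h, 8 h minus 0 h in the DMSO arm and 8 h minus 0 h in the CD3254 arm. Filled points have an adjusted p under 0.05, 13 lower on the left, 3 higher in the middle and 18 higher on the right.

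Other lists moved in the same table. General lysosomal genes rose in 15 of 16 cases from 0 h to 8 h with CD3254 and in 7 of 16 with DMSO, and the fibroblast list in 9 and 6 of 15. Of 49 further macrophage genes tested, 20 rose and 10 fell with CD3254 and 2 rose and 8 fell with DMSO. Relative to the median gene, 25 were higher and 9 lower with CD3254 and 7 higher and 5 lower with DMSO, and the lysosomal genes called higher were 16 and 14 of 16. With CD3254 those of the smallest p were the tetraspan genes Ms4a6d and Ms4a7 and the chemokine gene Pf4, which went from 11.8 and 23.3 CPM to 73.1 and 77.2 CPM. The neutrophil list summed to 8.60 and 10.8 CPM at 0 h and 26.9 and 28.1 CPM at 8 h with CD3254, mostly S100a8. The mast cell and basophil list went from 353 and 214 CPM to 97.8 and 96.8 CPM, mostly Kit, which stem and progenitor cells express too.

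Some of these genes share reads or sequence with others. Lyz1, a near-identical neighbour of Lyz2, was listed at no more than 0.802 TPM in any TPM library and 5.02 CPM in any CPM library. How reads that fit both genes were divided is not stated in the labels. In GENCODE M21 Itgam shares 68.7% of its exonic bases with the gene Gm49368 on the same strand, and its values are uncertain for that reason. Csf1r shares 15.1% with Hmgxb3 and Cd52 14.5% with Crybg2 on the opposite strand, and the labels do not say whether the counting used strand.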

How the data were processed

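RNA-seq was deposited as 5 gene tables, and each table was analysed on its own. The deposited columns name no unit. In 4 tables the deposited values were taken as TPM, because every library sums to nearly the same total, low values are not multiples of 1 step and StringTie is named in the submitters' processing notes. In the actinomycin D table the deposited signal columns were taken as gene counts scaled to the library total (CPM), and whole reads were recovered from their steps (99.99 to 100% of values whole within 0.001), giving 15382821 to 24186485 reads per library. The depth behind the TPM values is unknown, so no counting interval is given for them. The authors used fastp 0.20.1, HISAT2 2.1.0, StringTie 2.0 and the mm10 build, per the submitters' processing notes. Rows for repeats and ERCC spike-ins (2384) were left out of the tests.

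Values were tested as log2(value + 1) with limma 3.58.1 in R 4.3.3 (trended empirical Bayes, 2-sided, all groups of a table in the fit, p-values adjusted by Benjamini-Hochberg over all genes tested), for genes with at least 1 TPM or CPM in 2 libraries. A call is an adjusted p under 0.05. Fold changes relative to the median gene were refitted after median-ratio scaling. On the recovered reads edgeR 4.0.16 (quasi-likelihood) and DESeq2 1.42.0 were run as alternatives, and scaling to the spike-ins as another. Other alternatives were a pseudocount of 0.1, no filter, a filter at 5, leaving out mitochondrial genes, leaving out each library and the replicate number as a block. The limma fit was tested on simulated data.

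The 36 genes and the other gene lists were chosen with earlier results of these data known. All 36 are accounted for. Values are given wherever tested for Lyz2, Tyrobp, C1qa, C1qb, C1qc, Csf1r, Csf1, Ptprc, Adgre1 and Spi1, and for up to 10 further members per comparison with the smallest p and a mean of at least 5, and up to 3 genes of any other list. Pdgfra, Coro1a, Cd74 and the low members Ly86, Itgam, Aif1 and Cd52 were named after their values were seen. Promoter letters come from RefSeq on GRCm38.p6 and gene positions from GENCODE M21. Replicate numbers were not taken as pairs: the deviations of libraries with the same number correlated between -0.492 and 0.545 over the comparisons. Drawing used Python 3.11.15 with matplotlib 3.10.9.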

Additional observations from a re-analysis of the deposited data

How the results depend on the processing

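The counts of members called in MEF against each stem cell line, in CD iPSC against DMSP iPSC, with CD3254 and from 0 h to 8 h with CD3254 stayed within 1.5 times their value under every alternative run, except that a filter at 5 TPM left 1 with CD3254, where fewer genes were tested. With Rxra overexpression no filter gave 14 (4 higher and 10 lower), where 10163 of 26135 genes were called higher and 2035 lower. A filter at 5 gave 3 there, where 7482 of 8761 genes were called. With Exosc3 knockdown no filter gave 0. At 0 h of actinomycin D no filter gave 8 and spike-in scaling 5, of 1087 and 288 genes called in all. From 0 h to 8 h with DMSO, no filter and spike-in scaling gave 0 (5 and 1 members at an unadjusted p under 0.05), scaling to the median gene 14, edgeR 11 and DESeq2 13. Over all genes these settings called, in the same order, 2793, 3027, 5182, 4684 and 5633. From 0 h to 8 h with DMSO Csf1 reversed to 0.42 relative to the median gene and 0.42 with DESeq2, and with CD3254 to 0.38 with edgeR.

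Leaving out 1 library at a time gave 4 to 6 members called with CD3254, 5 with Rxra overexpression, 6 to 8 with Exosc3 knockdown, 1 to 17 at 0 h, 0 to 5 from 0 h to 8 h with DMSO (0 without DMSO library 1 at either time, 5 without library 2 at 0 h), 13 to 22 with CD3254 and 0 to 4 for the difference of the arms. It gave 35 to 36 for CD iPSC, 35 for DMSP iPSC, 34 to 35 for R1 cells and 13 to 15 for CD iPSC against DMSP iPSC. Fits that leave 1 library in a group assume that it varies like the other groups. Over 1328 such tests of single members, 77 lost and 22 gained a call, and none reversed. The cause was not tested for any of these changes.

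With the replicate number as a block the counts were 5 with CD3254, 5 with Rxra overexpression, 9 with Exosc3 knockdown, 10 at 0 h, 2 and 17 from 0 h to 8 h with DMSO and CD3254 and 0 for the difference, and 36, 35, 35 and 17 in the stem cell table. Crossing the numbers gave 6 with CD3254 and 5 with Rxra overexpression. It was tried after the data were seen, because deviations of same-numbered libraries correlated negatively there, though weakly (-0.11 and -0.14). The depth of the TPM libraries is unknown. The 29 members under 1 TPM in every library of the CD3254 or Rxra table were left out of all fits there except the one without a filter. That fit took genes above 0 in any library of the table.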

Other observations

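Lists of neighbouring cell types gave these counts. Osteoclasts are made by fusion of cells of the macrophage lineage, and of 5 osteoclast genes tested 3 fell in each stem cell line against MEF. Ctsk, the gene of cathepsin K that fibroblasts also express, fell from 208 and 250.4 TPM to 1.52 and 0.759 TPM in CD iPSC, while Acp5, the gene of tartrate-resistant acid phosphatase, rose from 1.79 and 0 TPM to 65.5 and 51.7 TPM. In reprogramming cultures Nfatc1, a transcription factor gene of many cell types, rose with CD3254 (4.71 and 4.50 TPM to 26.2 and 25.5 TPM) and Ctsk fell (23.5 and 22.9 TPM to 10.3 and 9.57 TPM).

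The MHC class II genes, which present antigen on activated macrophages and dendritic cells, did not move as one list. Of 4 tested, 2 rose in CD iPSC against MEF, 1 rose and 2 fell in DMSP iPSC and 2 rose and 1 fell in R1 cells. H2-Eb1 was at 0 and 0 TPM in MEF, 4.26 and 2.62 TPM in CD iPSC, 9.52 and 10.5 TPM in DMSP iPSC and 7.49 and 6.84 TPM in R1 cells, while Cd74, the chaperone gene of this complex, was highest in CD iPSC. Of 5 endothelial genes tested 3 rose and 1 fell in each line, and of 2 B cell genes 1 rose in each. Over all genes tested 33.3%, 31.4% and 36.2% rose in CD iPSC, DMSP iPSC and R1 cells, and 35.4%, 36.2% and 32.9% fell. Beside these shares the counts from lists this short, the osteoclast list included, are not read as a trait of a list.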
